A study of Bos grunniens with 12 samples.

Results

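The Leydig cell and steroidogenic genes described here are the rows of the gene table of yak testis that carry the symbol STAR, CYP11A1, DLK1, CYP17A1, HSD3B1, HSD17B3, LHCGR or INSL3. They were chosen by symbol alone, and a row was kept at any level. STAR had 1 row, CYP11A1 had 2 and DLK1 had 2, so 3 of the 8 symbols gave 5 rows out of 20953 rows in all. CYP17A1, HSD3B1, HSD17B3, LHCGR and INSL3 were not analysed here.

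Leydig cells lie between the seminiferous tubules and make testosterone from cholesterol when luteinizing hormone (LH) binds its receptor and raises cyclic AMP. STAR carries cholesterol to the inner mitochondrial membrane, and CYP11A1 cuts its side chain there to give pregnenolone, which later enzymes convert to androgens. DLK1 is a non-canonical Notch ligand that is known from fetal and immature Leydig cells and from other progenitor cells. The LH receptor, the insulin-like peptide INSL3 and the enzymes CYP17A1, HSD3B1 and HSD17B3 are further genes of Leydig cells that were not analysed here. STAR, CYP11A1 and DLK1 are not confined to Leydig cells, so Leydig cell identity was not checked.

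Testes of 6 yaks (Bos grunniens), 3 per group, each gave a library of RNA fragments bound by an antibody against N6-methyladenosine (m6A) and an input library taken before this step, 12 libraries in all. The values below come from the 6 input libraries, as FPKM (fragments scaled to the length of the transcript and to the mapped fragments of the library). The libraries are named by their titles. Those titled 18M came, per the growth protocol, from animals of 1.5 years whose testes were removed by castration. Those titled 5Y came from animals of 5 years whose testes were taken at slaughter, so age and the way of collection cannot be told apart. The labels and methods name no genetic modification and no treatment before sampling other than local disinfection of the castrated animals, which received antibiotics after their tissue had been taken. All samples were whole testis frozen for RNA. The developmental stage field of the same record says the opposite, calling the 5Y samples those before sexual maturity and the 18M samples those after it. Directions are therefore given between the titles 18M and 5Y, and a direction by age depends on which of these labels is right. The libraries titled 18M held high levels of TNP1, a nuclear protein of elongating spermatids, at 883, 852 and 879 FPKM, and those titled 5Y were lower, at 201, 641 and 550 FPKM. Elongating spermatids are known to form only after meiosis, once spermatogenesis runs to its late stages. TNP1 was found under both titles, at a higher level in 18M. These levels therefore bear on both labels, and the conflict between them is not settled here.

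The FPKM of an input library summed to between 116190 and 139920. Pearson's r across genes, which do not count as independent replicates, was 0.952 to 0.958 between 18M libraries and 0.868 to 0.935 between 5Y libraries. The 5Y libraries stood apart from each other. Against the 18M libraries, r was 0.817 to 0.837 for replicate 1 and 0.942 to 0.947 for replicate 2. Of 12437 genes with a mean of at least 0.5 FPKM, 4 (0.0322%) had an adjusted p-value under 0.05 between 5Y and 18M (limma on log2(FPKM + 0.1), Benjamini-Hochberg), while 25.1% passed 0.05 before adjustment. The lowest two-sided p-value that an exact permutation test allows for 3 against 3 libraries is 0.1.

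STAR had the highest FPKM of these genes and was lower in every 5Y library than in any 18M library. DLK1 was higher in every 5Y library on both of its rows, and CYP11A1 overlapped between the titles on both of its rows. None of the 4 rows tested had an adjusted p-value under 0.05 (limma, Benjamini-Hochberg). An unadjusted p-value under 0.05 was found for 2 of the 4, STAR and DLK1, beside 25.1% of all genes tested, and the same 2 rows did not overlap between the titles, beside 33.7% of all genes tested. All 5Y libraries lay above all 18M libraries in 19.8% of tested genes and below them in 13.9%. In bulk testis, fewer Leydig cells and less RNA per Leydig cell cannot be told apart.

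**Figure D1:**
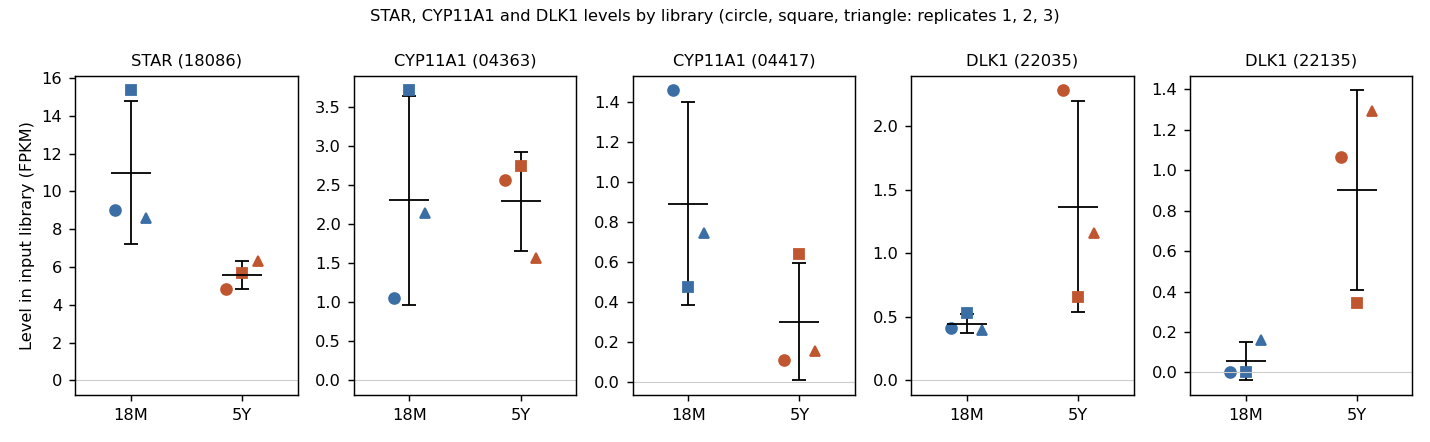
Level in FPKM (vertical axes, 1 scale per panel) of the STAR, CYP11A1 and DLK1 rows in the 18M (blue) and 5Y (orange) input libraries, with the last 5 digits of each identifier in brackets. Circles, squares and triangles are replicates 1, 2 and 3, and the horizontal line and bar are the mean and SD of 3 libraries. All 5Y libraries lie below all 18M libraries for STAR and above them for both DLK1 rows.

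STAR (ENSBGRG00000018086), the cholesterol carrier that sets the rate of steroid synthesis, was at 9.04, 15.4 and 8.60 FPKM in the 18M libraries 1, 2 and 3. In the 5Y libraries it was at 4.83, 5.67 and 6.30 FPKM. The 3 libraries of 5Y sat close together and below all of 18M, and replicate 2 of 18M stood above the other libraries. The mean was 11.0 ± 3.78 FPKM (SD, n = 3) in 18M and 5.60 ± 0.738 FPKM (SD, n = 3) in 5Y, 1.96-fold higher in 18M. The log2 fold change, 5Y minus 18M, was -0.92 (standard error 0.25, 95% confidence interval -1.50 to -0.34), with a limma adjusted p-value of 0.154 and a p-value of 0.1 from the exact permutation test. A lower log2 fold change than that of STAR was found for 7.24% of tested genes. Among all rows of the table, the level of STAR stood at percentile 82.5 to 90.3 in the 18M libraries and at percentile 73.0 to 77.0 in the 5Y libraries.

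The difference in STAR was smaller when replicate 2 of 18M was left out, at -0.65 on the log2 scale (standard error 0.19, adjusted p-value 0.295, limma), and the groups still did not overlap. On the scale of FPKM relative to the markers of Sertoli, peritubular, macrophage and endothelial cells, the log2 fold change of STAR was -1.67 (adjusted p-value 0.0296), where 50.7% of tested genes passed the same threshold and the median log2 fold change of all genes moved by -0.75.

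CYP11A1 catalyses the first and committed step of steroid synthesis. Its row ENSBGRG00000004363, annotated to steroid hormone biosynthesis and to the mitochondrial inner membrane, was at 1.05, 3.71 and 2.15 FPKM in the 18M libraries and at 2.57, 2.74 and 1.56 FPKM in the 5Y libraries. The lowest and the highest of the 6 values were both 18M libraries, and the 5Y values lay between them. The means were 2.30 ± 1.34 FPKM and 2.29 ± 0.635 FPKM (SD, n = 3 each). The log2 fold change was 0.12 (standard error 0.44, adjusted p-value 0.875, limma), with a 95% confidence interval of -0.92 to 1.16. It was -0.33 without replicate 1 of 18M and 0.53 without replicate 2 of 18M, so its sign rested on single libraries.

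The other CYP11A1 row, ENSBGRG00000004417, carries the same symbol and description but no gene ontology term, and the only pathway given for it is taste transduction, so that its identity as CYP11A1 is uncertain. It was at 1.46, 0.472 and 0.745 FPKM in 18M and at 0.112, 0.640 and 0.153 FPKM in 5Y. Replicate 2 of 5Y lay inside the 18M range, and the other 5Y libraries lay below it. The highest library was 13.0-fold above the lowest, the widest span of the rows above 0 in every library. The log2 fold change was -1.42 (standard error 0.61, 95% confidence interval -2.85 to 0.02, adjusted p-value 0.202, limma), and without replicate 2 of 5Y it was -1.97 (adjusted p-value 0.0430, with 19.3% of tested genes past that threshold). Within the 18M libraries the CYP11A1 rows ran in opposite order, since ENSBGRG00000004417 was highest in replicate 1, where ENSBGRG00000004363 was lowest. The sum of the FPKM of both rows was 2.50, 4.18 and 2.89 in 18M and 2.68, 3.38 and 1.72 in 5Y, which differed by -0.31 on the log2 scale (standard error 0.29, adjusted p-value 0.508).

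DLK1 was low in all libraries and higher in 5Y. Its row ENSBGRG00000022035 was at 0.409, 0.532 and 0.396 FPKM in the 18M libraries and at 2.28, 0.659 and 1.16 FPKM in the 5Y libraries. The 18M libraries lay close together, and the 5Y libraries spread upward from just above them, with replicate 2 nearest to 18M and replicate 1 farthest. The mean was 0.446 ± 0.0752 FPKM (SD, n = 3) in 18M and 1.37 ± 0.832 FPKM (SD, n = 3) in 5Y, 3.07-fold higher in 5Y. The log2 fold change was 1.28 (standard error 0.44, 95% confidence interval 0.25 to 2.31), with a limma adjusted p-value of 0.164 and a p-value of 0.1 from the exact permutation test, and 2.29% of tested genes had a higher one. Without replicate 2 of 5Y it was 1.68 (adjusted p-value 0.0306, with 19.3% of tested genes past that threshold), and without replicate 1 of 5Y it was 0.85 (adjusted p-value 0.269). On the scale relative to the somatic markers it was 0.53 (adjusted p-value 0.252).

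The DLK1 row ENSBGRG00000022135, which has the same description and no ontology term, was listed at 0 in replicates 1 and 2 of 18M and at 0.163 FPKM in replicate 3. In 5Y it was at 1.06, 0.345 and 1.29 FPKM. Its 5Y libraries were all above its 18M libraries, as for ENSBGRG00000022035, and replicate 2 was again the lowest of 5Y. Its mean over the 6 libraries, 0.477 FPKM, was under the minimum of 0.5, so it did not enter the test above. With no minimum, its log2 fold change was 2.70 (standard error 0.57, adjusted p-value 0.188, limma), a size that depends on the 0.1 added to values of 0. The summed FPKM of the DLK1 rows was 0.409, 0.532 and 0.559 in 18M and 3.35, 1.00 and 2.46 in 5Y, which differed by 1.84 on the log2 scale (standard error 0.43, adjusted p-value 0.154).

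**Figure D2:**
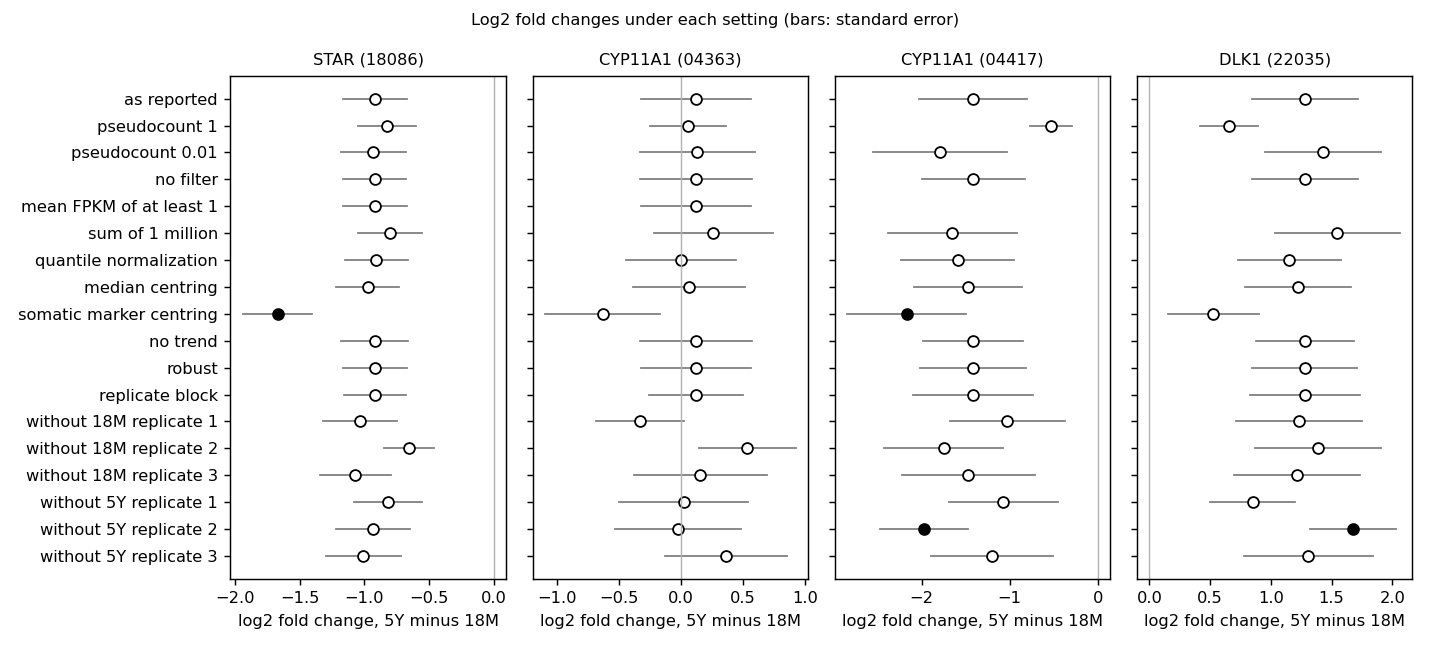
Log2 fold change of FPKM, 5Y minus 18M (horizontal axes), of the 4 tested rows under each setting (vertical axis), with bars for the standard error, filled points for an adjusted p-value under 0.05 and open points otherwise. STAR lies between -1.67 and -0.65 and DLK1 between 0.53 and 1.68 in these settings, while CYP11A1 (ENSBGRG00000004363) crosses 0.

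FPKM is scaled to transcript length, and the order of the rows is given here by FPKM as listed. Only reads with a unique place were kept. Whether this lowered CYP11A1 and DLK1, on 2 rows each, relative to STAR, on 1 row, was not tested. In the absence of fragment counts, the order of rows with close FPKM remains uncertain. In all 6 libraries STAR was the highest of the 5 rows. CYP11A1 (ENSBGRG00000004363) was next in 5 libraries, and in replicate 1 of 18M ENSBGRG00000004417, at 1.46 FPKM, stood above it at 1.05 FPKM. DLK1 (ENSBGRG00000022135) was the lowest row in every 18M library, and DLK1 (ENSBGRG00000022035) stood just above ENSBGRG00000004417 in replicate 2 of 18M and below it in the other 18M libraries. In replicates 1 and 3 of 5Y both DLK1 rows stood above ENSBGRG00000004417, and in replicate 1 DLK1 (ENSBGRG00000022035), at 2.28 FPKM, came near CYP11A1 at 2.57 FPKM.

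In a ratio within a library the scaling of that library cancels, except through the 0.1 added to each FPKM. The log2 ratio of STAR to CYP11A1 (ENSBGRG00000004363) was 2.99, 2.02 and 1.95 in 18M and 0.89, 1.02 and 1.94 in 5Y. All 18M libraries were higher, but replicate 3 of 18M and replicate 3 of 5Y were nearly equal. The difference was -1.04, with a p-value of 0.1 from the exact permutation test (0.2 after Benjamini-Hochberg adjustment over the 4 ratios computed), and with 0.01 added in place of 0.1 the groups overlapped and the exact permutation p-value was 0.2.

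The log2 ratio of DLK1 (ENSBGRG00000022035) to STAR, chosen after the data were seen, was -4.17, -4.61 and -4.13 in 18M and -1.05, -2.93 and -2.34 in 5Y. The mean difference was 2.20, and since each gene alone did not overlap, in opposite directions, the ratio could not overlap either and adds no separate evidence. The log2 ratio of DLK1 to CYP11A1 differed by 1.16 and overlapped, and that of ENSBGRG00000004417 to ENSBGRG00000004363 differed by -1.53 and overlapped, both also chosen after the data were seen.

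Genes that act before, beside and after the members were taken from 6 lists, which held 67 genes tested. A symbol on several identifiers stands for its identifier with the highest mean FPKM. Its other identifiers may differ, as the CYP11A1 rows did from each other. None of these had an adjusted p-value under 0.05 (limma). An unadjusted p-value under 0.05 was found for 18 genes with a higher level in 5Y and 6 with a lower level. Together these were 35.8% of the 67, beside 25.1% of all tested genes in either direction. By direction, 14.2% of all tested genes were higher and 10.9% lower in 5Y, and these shares also stand beside the counts of each list below. The median log2 fold change of the 67 genes was 0.25, and that of all tested genes was 0.04. Without replicate 2 of 5Y the counts were 29 and 7, beside 21.8% and 18.3% of all tested genes, and without replicate 3 of 5Y they were 9 and 4, beside 8.36% and 7.53%, so that the counts moved together with those of all genes. On the scale relative to the somatic markers every gene moves by -0.75, so the median of the 67 genes was -0.50, that of all genes -0.71, and the counts were 1 and 29 of the 67, beside 0.957% and 60.2% of all tested genes. For the listed genes below with an unadjusted p-value under 0.05, the direction was the same in FPKM as deposited, with equal FPKM sums, with quantile normalization and with median centring, and on the somatic scale only a gene above 0.75 stays higher in 5Y.

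**Figure D3:**
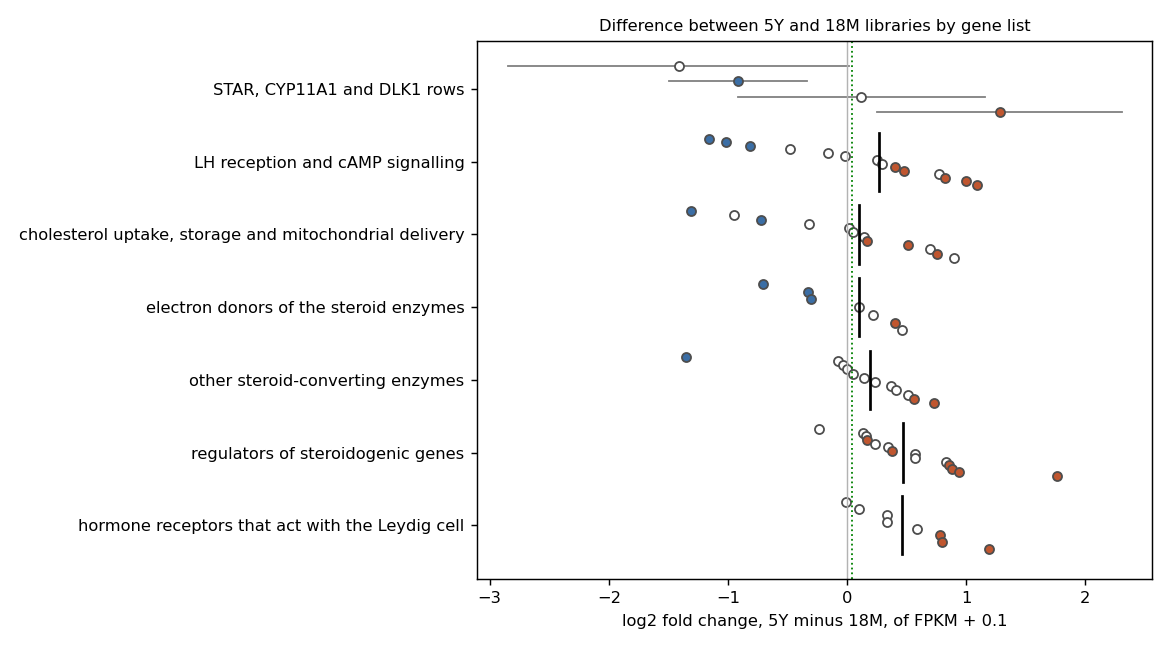
Log2 fold change of FPKM + 0.1, 5Y minus 18M (horizontal axis), of each tested gene in 6 lists and of the STAR, CYP11A1 and DLK1 rows (top, with bars for the 95% confidence interval). Blue and orange points are genes whose 5Y libraries were all below or all above the 18M libraries, white points overlapped, black lines are list medians and the dotted green line is the median of all tested genes, 0.04. The regulators and the receptors lie mostly to the right, with medians of 0.47 and 0.46.

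Counts by list also moved with single libraries. Regulators higher in 5Y were 8 without replicate 2 of 5Y and 3 without replicate 3 of 5Y, and receptors higher in 5Y were 2 without replicate 2 of 18M, replicate 1 of 5Y or replicate 3 of 5Y. Over the fits that each left out 1 library, genes higher and lower in 5Y numbered 3 to 6 and 1 to 4 in LH reception and cyclic AMP signalling, 0 to 4 and 0 to 2 in the cholesterol list, 0 to 2 and 0 to 1 among electron donors, and 1 to 4 and 1 among other enzymes. The shares of all tested genes higher and lower in 5Y were 9.34% and 4.88% without replicate 1 of 18M, 9.56% and 7.22% without replicate 2 of 18M, and 8.31% and 5.05% without replicate 3 of 18M. Without replicate 1 of 5Y they were 9.99% and 8.51%.

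In LH reception and cyclic AMP signalling, 4 of 14 tested genes had an unadjusted p-value under 0.05 with a higher level in 5Y and 2 with a lower level, and the median log2 fold change was 0.27. AKAP1, which anchors protein kinase A at the mitochondrion, was at 53.9, 44.2 and 46.8 FPKM in 18M and at 12.2, 27.7 and 29.5 FPKM in 5Y (log2 fold change -1.16, standard error 0.34, adjusted p-value 0.154). PDE4A, a phosphodiesterase that degrades cyclic AMP, had a log2 fold change of -1.01, from 10.7 ± 1.64 FPKM in 18M to 5.71 ± 2.84 FPKM in 5Y (SD, n = 3 each). Both of these genes were lower in every 5Y library. PRKACB, a catalytic subunit of protein kinase A, was higher in every 5Y library, at 3.99 ± 0.455 FPKM in 18M and 9.35 ± 4.73 FPKM in 5Y (log2 fold change 1.09). The most abundant genes of the list were PRKAR1A, a regulatory subunit of the same kinase, at 99.3 ± 5.47 and 90.0 ± 18.8 FPKM with overlap, and CREM, a cyclic AMP responsive transcription factor. CREM, at 94.1 ± 5.06 FPKM in 18M and 58.3 ± 27.6 FPKM in 5Y, also stands on the list of round spermatid markers.

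Among the genes of cholesterol uptake, storage and mitochondrial delivery, 2 of 12 had an unadjusted p-value under 0.05 with a higher level in 5Y and 2 with a lower level (median log2 fold change 0.10). LIPE, the hormone-sensitive lipase that frees cholesterol from its esters, was at 36.4, 29.6 and 31.8 FPKM in 18M and at 6.03, 19.3 and 19.2 FPKM in 5Y (log2 fold change -1.31, standard error 0.43, adjusted p-value 0.160). SOAT1, which makes these esters, was also lower in every 5Y library (log2 fold change -0.73, standard error 0.26). VDAC1, a channel of the outer mitochondrial membrane, was higher in every 5Y library (log2 fold change 0.75, standard error 0.30). PLIN2, a coat protein of lipid droplets, overlapped, at 28.1 ± 4.44 and 23.8 ± 11.1 FPKM.

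SCARB1, the receptor that takes up cholesterol from high-density lipoprotein, was named after its values were seen. It was at 2.55, 12.5 and 2.79 FPKM in 18M and at 2.04, 1.87 and 3.08 FPKM in 5Y. Replicate 2 of 18M stood far above the other 5 libraries, as it did for STAR, and the rest overlapped. Against the mean of the other 18M libraries, that library was higher for CD68 (2.36-fold), CSF1R (1.90-fold), CD163 (1.61-fold) and CD14 (1.29-fold). These are macrophage markers, and AIF1, the other one tested, was at 0.915-fold. CD68, CSF1R and CD163 had means of only 0.576, 0.596 and 0.735 FPKM in the other 18M libraries. The macrophage sum was 25.9 FPKM in replicate 2 and 22.7 and 23.8 FPKM in the others. From other marker lists, GFRA1 of spermatogonia (1.81-fold) and CNN1 of stromal cells (1.58-fold) were also higher there. The most abundant genes of those lists, DMRT1 (1.12-fold) and ACTA2 (0.898-fold), differed less. The part of macrophages in the levels of STAR and SCARB1 was not tested.

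Of 7 electron donors of the steroid enzymes, 1 had an unadjusted p-value under 0.05 with a higher level in 5Y and 1 with a lower level (median log2 fold change 0.10). FDX1, the ferredoxin that passes electrons to CYP11A1, was at 14.3, 13.1 and 14.1 FPKM in 18M and at 12.5, 12.6 and 8.88 FPKM in 5Y (log2 fold change -0.30, unadjusted p-value 0.127 from limma). Its 5Y libraries were all lower, by a small margin in replicates 1 and 2. CYB5R3, which reduces cytochrome b5, was at 10.1, 20.1 and 13.7 FPKM in 18M and at 9.70, 6.78 and 9.69 FPKM in 5Y (log2 fold change -0.70, standard error 0.28). CYB5B, the cytochrome b5 of the outer mitochondrial membrane, was higher in every 5Y library (log2 fold change 0.40, standard error 0.16).

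Of 12 other steroid-converting enzymes tested, 2 had an unadjusted p-value under 0.05 with a higher level in 5Y and 1 with a lower level (median log2 fold change 0.19). HSD17B1, which reduces estrone to estradiol, was at 7.11, 7.52 and 8.38 FPKM in 18M and at 1.69, 3.90 and 3.81 FPKM in 5Y. The gap between the titles was wider than the spread within each (log2 fold change -1.35, standard error 0.32, adjusted p-value 0.154). HSD17B4, an enzyme of peroxisomal beta-oxidation, was at 7.43 ± 0.677 FPKM in 18M and 11.2 ± 2.63 FPKM in 5Y (log2 fold change 0.57). HSD17B12, which acts in the elongation of fatty acids, was at 4.71 ± 0.383 and 8.11 ± 2.55 FPKM (log2 fold change 0.73). The most abundant enzyme of the list, HSD17B8, was at 11.6 ± 0.416 and 11.4 ± 1.25 FPKM (SD, n = 3 each) and overlapped.

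Regulators of steroidogenic genes leaned to 5Y in FPKM, and their median was -0.28 on the somatic scale. Of 14 tested, 5 had an unadjusted p-value under 0.05, all with a higher level in 5Y, beside 14.2% of all tested genes. Of these 14, 6 were higher in every 5Y library and none was lower in every one, beside 19.8% and 13.9% of all tested genes. Their median log2 fold change was 0.47. TCF21, a mesenchymal transcription factor, was at 0.644, 0.158 and 0.743 FPKM in 18M and at 1.51, 1.60 and 2.20 FPKM in 5Y (log2 fold change 1.76, standard error 0.47, adjusted p-value 0.154). JUN, a subunit of the factor AP-1, had a log2 fold change of 0.94 (standard error 0.27). GATA4, which activates promoters of steroidogenic genes in Leydig and Sertoli cells, was at 6.80, 6.14 and 5.56 FPKM in 18M and at 15.5, 8.64 and 11.1 FPKM in 5Y (log2 fold change 0.88, standard error 0.23). These 3 genes did not overlap between the titles. NR2C2, a nuclear receptor and the most abundant of the list, was at 11.9 ± 1.03 and 10.3 ± 2.53 FPKM and overlapped. NR5A1, the nuclear receptor that activates STAR and CYP11A1, was named after its values were seen and was at 2.61, 2.67 and 2.21 FPKM in 18M and at 3.77, 2.78 and 3.32 FPKM in 5Y, all higher in 5Y (log2 fold change 0.38, standard error 0.18, unadjusted p-value 0.0697 from limma).

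Of 8 tested receptors of hormones, growth factors or hedgehog ligands on or beside the Leydig cell, 4 had an unadjusted p-value under 0.05. All 4 were higher in 5Y, beside 14.2% of all tested genes (median log2 fold change 0.46, and -0.29 on the somatic scale). PTCH1, the receptor of hedgehog ligands, was at 1.94, 2.38 and 2.02 FPKM in 18M and at 6.17, 3.75 and 5.16 FPKM in 5Y (log2 fold change 1.19, standard error 0.21, adjusted p-value 0.154). FSHR, the receptor of follicle-stimulating hormone on Sertoli cells, had a log2 fold change of 0.78 (standard error 0.27). Both of these genes were higher in every 5Y library. IGF1R, the most abundant of the list, was at 21.7 ± 0.833 and 23.4 ± 2.51 FPKM and overlapped.

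Markers of other cell types differed along the same comparison, although none of the listed genes had an adjusted p-value under 0.05 (limma). The counts of these lists stand beside 14.2% of all tested genes higher and 10.9% lower in 5Y at an unadjusted p-value under 0.05. Round and elongating spermatid markers were lower in 5Y, with 5 of 7 and 5 of 5 tested genes past an unadjusted p-value of 0.05, and the median log2 fold change was -1.23 in each list. These counts were 0 of 7 and 2 of 5 without replicate 3 of 18M, 1 of 7 and 1 of 5 without replicate 1 of 18M, 3 of 7 and 2 of 5 without replicate 2 of 18M, and 1 of 7 and 4 of 5 without replicate 3 of 5Y. The medians stayed negative in every such fit and were nearest to 0 without replicate 1 of 5Y, at -0.85 and -0.70. The summed FPKM of the elongating spermatid list was 1261 to 1320 in 18M and 282 to 911 in 5Y, and that of the round spermatid list was 273 to 342 and 78.1 to 268. The next most abundant elongating spermatid gene after TNP1, HMGB4, a chromatin protein, was at 133 ± 10.6 FPKM in 18M and 70.4 ± 35.7 FPKM in 5Y, and among round spermatid genes TSSK1B, a testis-specific kinase, was at 69.7 ± 8.48 and 38.3 ± 18.8 FPKM.

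Markers of supporting cells leaned the other way, except on the scale that is centred on them, where the Sertoli median was 0.03 and the peritubular and stromal median 0.09. Of 5 tested Sertoli cell genes, 4 were past an unadjusted p-value of 0.05 and higher in 5Y (median log2 fold change 0.78), with a summed FPKM of 16.9 to 21.3 in 18M and 24.4 to 36.3 in 5Y (2 of 5 without replicate 3 of either title), while GATA1 was listed at 0 in every library. SOX9, a Sertoli cell transcription factor, was at 7.48 ± 0.816 and 11.6 ± 2.60 FPKM, and INHBB, an inhibin subunit, at 5.27 ± 1.40 and 6.07 ± 0.320 FPKM. Of 9 peritubular and stromal genes, 6 had such a p-value and were higher in 5Y (median 0.84), with a summed FPKM of 28.5 to 32.2 in 18M and 41.1 to 68.9 in 5Y. ACTA2, the smooth muscle actin, was at 7.37 ± 0.510 and 13.7 ± 4.34 FPKM, and COL3A1, a collagen chain, at 6.02 ± 1.19 and 13.0 ± 2.43 FPKM.

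The remaining lists differed less between the titles. Spermatogonia genes had 1 of 7 with an unadjusted p-value under 0.05, higher in 5Y (median 0.40, sums of 59.5 to 67.6 in 18M and 71.9 to 141 FPKM in 5Y), and spermatocyte genes 0 of 8 (median 0.05). Macrophage genes had 2 of 5, both lower in 5Y (median 0.00), with sums of 22.7 to 25.9 and 13.5 to 28.0 FPKM, and endothelial genes 1 of 5, higher in 5Y (median 0.12), with sums of 10.0 to 15.7 and 15.3 to 22.2 FPKM. Erythroid genes summed to at most 0.863 FPKM in any library. Adrenal cortex, another tissue that expresses STAR and CYP11A1, was represented by CYP21A2, the adrenal 21-hydroxylase, at no more than 0.0682 FPKM, and by MC2R, the receptor of corticotropin, at 1.42 ± 0.0268 and 1.90 ± 0.713 FPKM with overlap.

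The STAR, CYP11A1 and DLK1 rows summed to 20.1 FPKM in replicate 2 of 18M and to 10.0 to 10.9 FPKM in the 5Y libraries, with the other 18M libraries between these. STAR made up most of each 18M sum, and all 18M libraries were higher, as for the spermatid lists. DLK1 (ENSBGRG00000022035) was highest in replicate 1 of 5Y, as were 33.7% of all tested genes. The peritubular and stromal, Sertoli, spermatogonia and endothelial sums were also highest in that library, and the spermatid sums were lowest. Among 5Y libraries this DLK1 row was lowest in replicate 2, where the spermatid sums were closest to those of 18M. DLK1 (ENSBGRG00000022135) was highest in replicate 3 of 5Y, at 1.29 FPKM. Among the listed genes, LIPE and AKAP1 were lowest in replicate 1 of 5Y, as the spermatid sums were. The part of other cell types in the values of STAR, DLK1 and the listed genes was not tested.

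**Figure D4:**
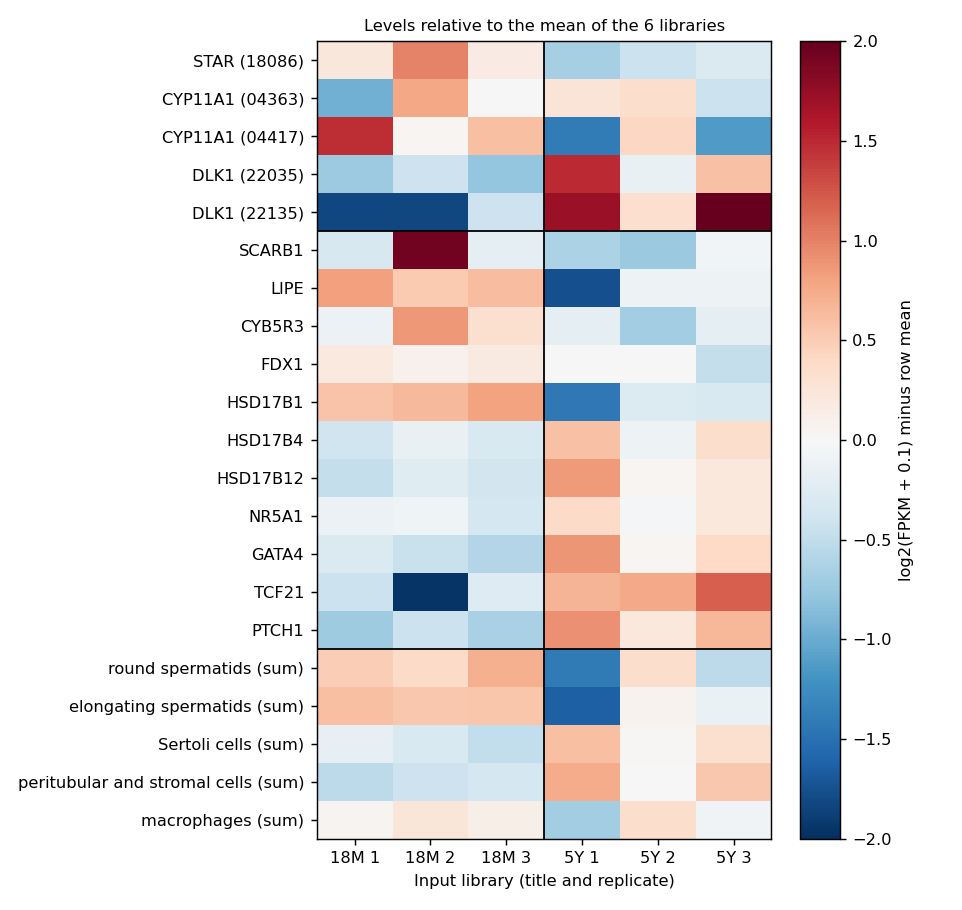
Level of each row in the 6 input libraries (horizontal axis: title and replicate) as log2(FPKM + 0.1) minus the mean of the row, red above and blue below it, with the colour scale ending at -2 and 2. The top block holds the STAR, CYP11A1 and DLK1 rows. The middle block holds a chosen part of the genes of the 6 lists, with none from LH reception and cyclic AMP signalling. The bottom block holds the summed FPKM of markers of other cell types, without spermatogonia, spermatocytes and endothelial cells. STAR is above its mean in all 18M libraries and below it in all 5Y libraries, and replicate 2 of 18M stands out for STAR, CYP11A1 (ENSBGRG00000004363), SCARB1 and CYB5R3.

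For each tested row, the gene with the nearest profile over the 6 libraries was taken from 10926 other genes by the root mean square difference of log2(FPKM + 0.1) after centring. For STAR it was AP3M2, a subunit of an adaptor complex of vesicle transport, at 4.58, 6.30 and 4.43 FPKM in 18M and 2.66, 2.66 and 3.44 FPKM in 5Y (difference 0.147, against a spread of STAR around its own mean of 0.541). For CYP11A1 (ENSBGRG00000004363) it was CCNE1, a cyclin of the entry into S phase (difference 0.220, own spread 0.560). These values are descriptions over 6 libraries.

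For ENSBGRG00000004417, the row of uncertain identity, the nearest gene was IZUMO1, a sperm protein needed for fusion with the egg, at 5.47, 2.39 and 3.17 FPKM in 18M and 0.885, 3.42 and 1.01 FPKM in 5Y (difference 0.145, own spread 0.998). For DLK1 (ENSBGRG00000022035) it was ARMH4, at 12.1, 14.3 and 11.9 FPKM in 18M and 51.7, 16.3 and 28.0 FPKM in 5Y (difference 0.0653, own spread 0.806). ARMH4 had the same order of the 6 libraries as DLK1. IZUMO1 differed from its member only in the order of replicate 3 of 18M and replicate 2 of 5Y, and in both genes replicate 2 of 5Y lay near or within the 18M libraries.

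The differential m6A peaks between the groups, 1438 peaks on 1207 genes, included 0 on STAR, CYP11A1 or DLK1, by symbol or by identifier, beside 9.29% of tested genes with such a peak. m6A is a methyl mark on adenosines of mRNA, and the deposited list gives each peak's place without any size or p-value of the difference, so no direction can be given. A gene missing from the list either had no called peak or had a peak that did not pass the thresholds of the comparison, and these cannot be told apart here.

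In the 6 lists, 10 of the 67 tested genes, 14.9%, carried 11 differential peaks, beside 9.29% of all tested genes with such a peak. Of the 10, 5 were among the 14 tested regulators, and whether this differs from the other lists was not tested. NR2F2, a nuclear receptor of Leydig progenitor and stromal cells, had 2 peaks on chromosome 17 of LU_Bosgru_v3.0, at 9790760 to 9790906 in exon 1 of 4 and at 9783574 to 9783756 in exon 3 of 4. NR0B1, a repressor of NR5A1, had a peak at 123517576 to 123517865 of the X chromosome in its single exon. GATA6 had a peak at 30314384 to 30315130 of chromosome 21 in exon 3 of 8, SP1 in the 5′UTR at 81015625 to 81015774 of chromosome 5, and CEBPB at 74346088 to 74346530 of chromosome 12 in exon 2 of 2. GATA6, SP1 and CEBPB are transcription factors that bind promoters of steroidogenic genes.

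Among the receptors, NR3C1, the glucocorticoid receptor, had a peak in exon 1 of 9 at 59323567 to 59323966 of chromosome 8, and MC2R had one in exon 1 of 2 at 41578991 to 41579317 of chromosome 21. Outside these lists of regulators and receptors, ADCY9, an adenylate cyclase that makes cyclic AMP, had a peak in exon 11 of 11 at 44250536 to 44250884 of chromosome 26, and H6PD, which supplies NADPH to steroid enzymes in the endoplasmic reticulum, had a peak in exon 6 of 6 at 41347715 to 41348162 of chromosome 14. Of the genes named with a peak, ADCY9 (log2 fold change 1.00), NR2F2 (0.86) and SP1 (0.17) were higher in every 5Y input library, and the others overlapped.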

How the data were processed

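Input and IP libraries of 6 yak testes were sequenced. Per the study's methods and the labels, the authors used Trimmomatic for adapters and low-quality reads, SortMeRNA against rRNA and HISAT2 (2.0.4 in the submitters' processing notes) for alignment to LU_Bosgru_v3.0, retained only reads with a unique place and deposited FPKM per gene for each input library. The program that computed FPKM is not given in the sources used here. The table holds no fragment counts, so no interval or floor from depth was computed, and the depth behind a single value is unknown. Peaks were called by the authors with MeTDiff, per sample against its own input (p of at most 0.05, fold of at least 1.5) and annotated with ChIPseeker, and each peak's width in bp was taken as deposited, as start to end. How the replicates of a group were joined for the comparison of groups is not given in the sources used here. Peak lists of single groups and the IP libraries were not used.

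FPKM was tested with limma 3.58.1 in R 4.3.3 (eBayes, trend on) after adding 0.1 and taking log2, where the mean over the 6 input libraries reached 0.5 FPKM, two-sided, with Benjamini-Hochberg adjustment over all genes tested. Ratios were tested by an exact permutation test over libraries (Python 3.11.15, scipy 1.17.1). The limma step was checked on simulated data. Of 4 planned ratios, 3 need genes not analysed here. All rows of a member symbol were kept. A gene that the naming rule selects from another list is not reported here. In each other list, up to 3 non-overlapping genes with an unadjusted p-value under 0.05 and the largest log2 fold change and the 2 with the highest mean FPKM were named, in marker lists the 2 highest, and a symbol on several identifiers was taken at the identifier with the highest mean FPKM. Members and lists were chosen with earlier results of these data known. Replicate numbers come from the titles and mark different animals. Alternatives were other pseudocounts, filters, scalings and forms of eBayes, a replicate block and leaving out each library.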

Additional observations from a re-analysis of the deposited data

How the results depend on the processing

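STAR kept a negative log2 fold change (-1.67 to -0.65) and DLK1 (ENSBGRG00000022035) a positive one (0.53 to 1.84) in all 17 alternatives run for each, with adjusted p-values of 0.0296 to 0.374 and 0.0306 to 0.377. CYP11A1 (ENSBGRG00000004417) stayed negative in 16, at -2.17 to -0.53. Centring on 24 somatic marker genes, which lowers all 5Y values, gave STAR -1.67, ENSBGRG00000004417 -2.17 (adjusted p-value 0.0343), 2 of 4 rows and 6301 genes past the adjusted threshold. Genes higher and lower in 5Y at an unadjusted p-value under 0.05 were 1767 and 1356 as deposited, 2418 and 1044 with equal FPKM sums, 1439 and 1689 with median centring and 119 and 7489 there. CYP11A1 (ENSBGRG00000004363) turned negative there (-0.63), with quantile normalization (-0.0040), with identifiers summed (-0.31, chosen after seeing the data), without replicate 1 of 18M (-0.33) and without replicate 2 of 5Y (-0.024), and the cause was not tested.

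Over the fits that each left out 1 library, STAR lay between -1.07 and -0.65, ENSBGRG00000004363 between -0.33 and 0.53, ENSBGRG00000004417 between -1.97 and -1.03, and DLK1 between 0.85 and 1.68. The rows past the adjusted threshold numbered 0 to 2 and past the unadjusted one 1 to 3, and 0 to 2403 genes passed the adjusted one, 2403 of them without replicate 2 of 5Y. The log2 ratio of STAR to CYP11A1 lay between -1.37 and -0.70. The 4 genes past the adjusted threshold were 2 with a pseudocount of 0.01, with a mean of at least 1 FPKM or with all libraries rescaled to an equal FPKM sum, 8 with no minimum and 9 without the trend. Rows with an unadjusted p-value under 0.05 were 4 with no minimum and 1 with a mean of at least 1, where fewer rows were tested.

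Same-numbered libraries of the titles did not deviate together (r = -0.022, -0.091 and 0.0067 across genes), so the numbers were not read as pairs. With the replicate block 1 gene and 0 member rows passed the adjusted threshold, with STAR at -0.92 (adjusted p-value 0.204) and DLK1 at 1.28 (0.217). Ratios with INSL3, HSD17B3, CYP17A1 and LHCGR were not run. CYP11A1 (ENSBGRG00000004417) and both DLK1 rows had means under 1 FPKM, with an unknown number of fragments behind them.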

Other observations

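Replicate 2 of 18M stood above the other 18M libraries for some of the genes described, a pattern chosen after the data were seen. Against the mean of replicates 1 and 3 of 18M, it was 2.32-fold higher for CYP11A1 (ENSBGRG00000004363) and 1.74-fold higher for STAR. At least 1.5-fold was reached by 8 of 67 tested list genes, 11.9%, and by 4.78% of all tested genes. The 8 were SCARB1 (4.69-fold), LIPA, the lysosomal lipase (2.00-fold), HSD17B7, an enzyme of cholesterol synthesis (1.89-fold), CYB5R3 (1.69-fold), PDGFRA, a growth factor receptor of stromal cells (1.63-fold), CYB5A (1.54-fold), EGR1, an early response factor (1.52-fold), and H6PD (1.51-fold). In the cholesterol list the other 10 of 12 genes did not reach it, among them LIPE at 0.868-fold and PLIN2 at 0.999-fold, and CYP11A1 (ENSBGRG00000004417) was at 0.429-fold. Of 5 tested macrophage markers, CD68 (2.36-fold), CSF1R (1.90-fold) and CD163 (1.61-fold) reached it and CD14 (1.29-fold) and AIF1 did not. In other marker lists GFRA1 (1.81-fold), CNN1 (1.58-fold) and LUM (1.52-fold) also reached it, while DMRT1 (1.12-fold) and ACTA2 (0.898-fold) did not. The library was the highest of the 6 for 9.88% of tested genes. This is 1 animal, and no test was made.

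NR5A2 and GHR were among the rows under the minimum for the test whose libraries did not overlap between the titles. NR5A2, a nuclear receptor related to NR5A1, was at 0.876, 0.562 and 0.692 FPKM in 18M and at 0.268, 0.294 and 0.236 FPKM in 5Y, lower in every 5Y library and opposite to NR5A1. GHR, the growth hormone receptor, was at 0.0997 ± 0.0404 and 0.285 ± 0.0853 FPKM (SD, n = 3 each), higher in every 5Y library. HSD3B7, which acts in bile acid synthesis, stands on 3 identifiers. Of these, ENSBGRG00000024944 and ENSBGRG00000024472 were above the minimum and overlapped between the titles. ENSBGRG00000024944 was at 2.17, 4.34 and 9.27 FPKM in 18M and at 13.0, 5.34 and 1.68 FPKM in 5Y, a wide spread within both titles. ENSBGRG00000024472 stayed between 3.90 and 4.59 FPKM.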
